A study of Caenorhabditis elegans with 4 samples.

Results

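Peaks were examined over sea-2, the gene that encodes the tagged protein of this experiment, in a region made of the gene body and 5000 bp to each side on chromosome II. All peaks with a summit in that region were taken from 6 deposited lists on the build ce11. The region held 2 peaks of the final list (0.641% of it), 9 of 3912 peaks of the pooled list, and 6 of 23684, 18 of 30000, 25 of 30000 and 20 of 30000 peaks of the lists of replicates 1, 2, 3 and 4. The final list held 7.98% as many peaks as the pooled list, which is deposited as peaks and background together. Members thus numbered 80 in all, of which 69 came from the replicates. The experiment was chromatin immunoprecipitation followed by sequencing (ChIP-seq), which recovers the DNA that lies with a chosen protein. It used whole worms of mixed sex at the L3 larval stage of Caenorhabditis elegans, in 4 biological replicates of 1 group. All were of strain OP193, which has the mutation unc-119(ed3) and the integrated transgene wgIs193. The transgene expresses SEA-2 with the tags TY1, EGFP and FLAG at its C terminus. It also carries unc-119, a gene needed for normal movement, which restores the function lost in the mutation.

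The genotype lists no mutation of sea-2, so untagged SEA-2 from the native gene could be present beside the tagged protein. How many copies of the transgene there are, and how much worm DNA it holds, is not known here. Chromatin of the transgene and of the native locus cannot be told apart by position in these lists. The labels name the worms of replicates 1 and 2 as obtained from a strain stock centre and give a fragment size range for them, while replicates 3 and 4 had another source and a note on sonication.

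SEA-2 is a zinc finger protein. In C. elegans sex is set by the number of X chromosomes relative to autosomes, and sea-2 is known as one of the autosomal elements of that count, which act in early embryos on the switch gene xol-1 and oppose the elements encoded on X. The gene also has a known part in larval developmental timing. Proteins that lie on the chromatin of their own gene are known in many species.

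The gene (WBGene00004751) lies on the plus strand at chrII:3950377-3972140 and is 21764 bp long. Of 19973 protein-coding genes, 162 (0.811%) were at least as long, against a median length of 2027 bp. Its 19 annotated transcripts begin at 6 different positions. From the gene start at 3950377 begin 4 transcripts, and the other 15 begin at 3962223 or further downstream. Intron 2 of the longest transcript runs from 3951334 to 3961688 and is 10355 bp long, which is 32.6% of the region. It is an intron only for the 4 transcripts that begin at the gene start, and for the other 15 it is upstream sequence. Many worm messages are trans-spliced, so an annotated start may be a splice site, and distances are to the annotated position.

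Both final peaks lay in intron 2, and their sequences are shown because they hold the strongest summits of the gene and share a repeated word. The first 2 lines run from 50 bp before each final summit to the end of the peak, at chrII:3958843-3959062 and chrII:3959845-3960064. The third line is 101 bp around the nearest summit of replicate 4 to the downstream final peak, at chrII:3960136-3960236. They are the plus strand of ce11 from RefSeq, and capitals mark each run of GAGAGA or of its complement TCTCTC.

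Upstream final peak: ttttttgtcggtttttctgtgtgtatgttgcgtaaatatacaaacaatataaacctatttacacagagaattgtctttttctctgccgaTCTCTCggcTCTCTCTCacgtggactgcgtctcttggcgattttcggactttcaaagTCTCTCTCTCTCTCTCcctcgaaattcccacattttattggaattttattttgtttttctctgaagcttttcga

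Downstream final peak: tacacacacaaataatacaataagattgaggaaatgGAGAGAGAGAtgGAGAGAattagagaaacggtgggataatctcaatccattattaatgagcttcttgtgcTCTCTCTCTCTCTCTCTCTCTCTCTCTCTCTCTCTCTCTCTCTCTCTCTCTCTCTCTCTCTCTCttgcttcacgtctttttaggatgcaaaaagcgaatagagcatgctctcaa

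Replicate 4 summit beside the downstream peak: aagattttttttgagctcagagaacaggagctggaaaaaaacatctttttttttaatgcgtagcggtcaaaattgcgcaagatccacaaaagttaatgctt

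The upstream final peak, over its full 340 bp, held 11 GAGAGA words on either strand, overlapping words counted, and the downstream one held 34. The longest uninterrupted run of CT or TC repeats was 16 bp in the upstream peak (3958989 to 3959004) and 66 bp in the downstream peak (3959950 to 3960015). The 101 bp around the replicate 4 summit held 0 such words, where the 101 bp around the upstream and downstream final summits held 1 and 4. The replicate 4 peak itself began at 3959998, inside the 66 bp run. Among all final peaks, 67.9% held at least 1 such word, 12 (3.85%) held at least 11 and 1 (0.321%) held at least 34, so the downstream peak had the highest number in the list. Among 294916 consecutive tiles of 340 bp over the genome, 16.2% held at least 1, 237 (0.0804%) at least 11 and 42 (0.0142%) at least 34. The word was chosen after the sequences were seen, and its presence is a description of the sequence and not of a binding site.

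The repeat bears on how uniquely reads could be placed. Bases 3959932 to 3960033 of the downstream peak matched 104 places elsewhere in the genome over at least 50 bp at 90% identity or more, the longest match being 82 bp. Counted as copies and not as places, the number for this peak was 1325, the longest being 83 bp. Of those 104 places 9 overlapped a pooled peak and 1 overlapped a final peak. No share over the genome as a whole was taken beside these counts. They therefore do not say whether such places were called more or less often than others. The upstream final peak and the other 7 pooled peaks of the region had no such match. How reads with several matches were placed is not known here, and the part of the repeat in the downstream peak was not tested. Both final summits had 34.7% G and C in the 101 bp around them, against a median of 50.5% and a range of 23.8 to 70.3% over all final summits. In 8 windows of the final list, these included, the share was no higher, whereas the genome had 35.4%.

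Of the 2 final peaks, the upstream one spanned 3958723 to 3959062 and had its summit at 3958893, which is 8516 bp from the gene start and 3330 bp upstream of the start at 3962223. The downstream one spanned 3959725 to 3960064, with its summit at 3959895, which is 9518 bp from the gene start and 2328 bp upstream of 3962223. The summits were 1002 bp apart. For comparison, 775 of 19973 protein-coding genes (3.88%) had at least 1 final summit in their own gene body plus 5000 bp, and 49 (0.245%) had at least 2. Long genes have more room for a summit. Among the 162 genes at least as long as sea-2, 8 (4.94%) had at least 1 and 3 (1.85%) had at least 2.

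**Figure D1:**
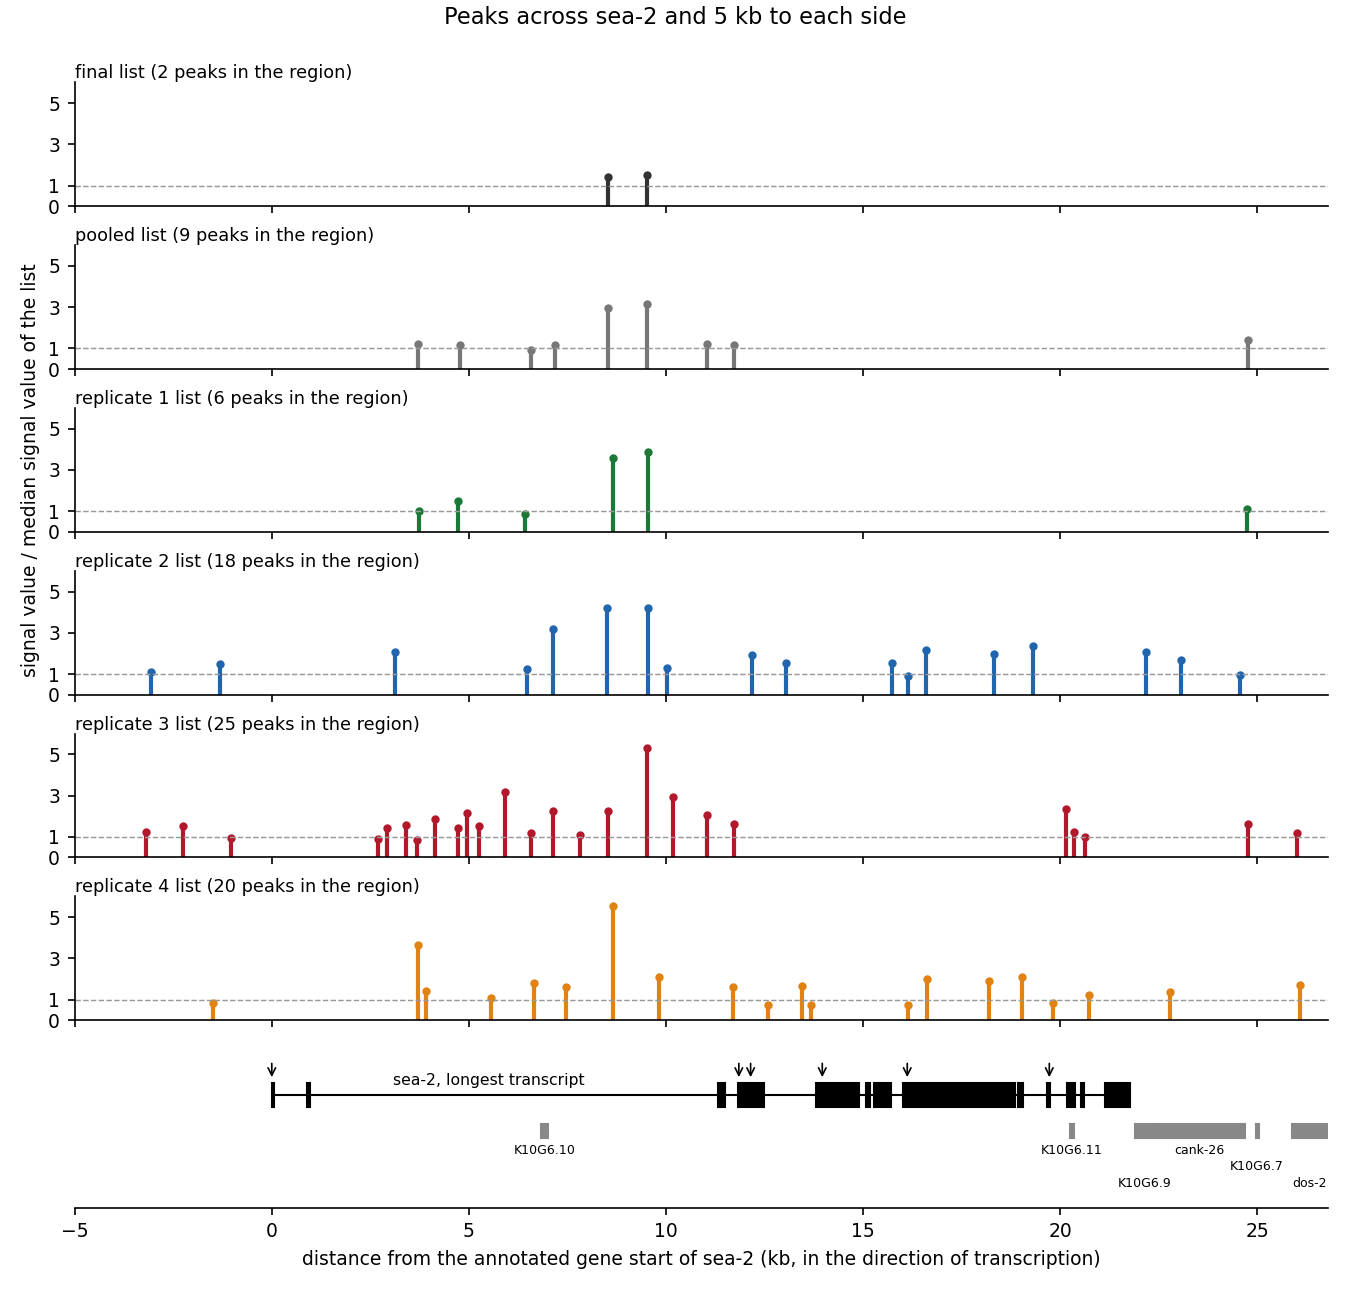
Peaks at sea-2 in the final list, the pooled list and the 4 replicates, by distance from the annotated gene start in kb (x axis) and by signal value divided by the median signal value of the same list (y axis, dashed line at 1). Each stem is 1 summit, black boxes are exons of the longest transcript, grey boxes are other genes and arrows are the 6 annotated starts. The 2 final peaks stand at 8516 and 9518 bp inside intron 2, and stems in all 4 replicates stand at or near them.

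The upstream final peak was matched in all 4 replicates by a summit within 170 bp. Its signal value was 44.98 in replicate 1, 19.2 in replicate 2, 15.7 in replicate 3 and 33.2 in replicate 4, where it was the 40th, 72nd, 527th and 5th strongest peak of the list. The authors' signal values have no stated scale, so lists are set side by side only by rank or by the ratio to the list's own median. That ratio was 3.56, 4.22, 2.27 and 5.53 in replicates 1 to 4. The site was thus among as many of the strongest peaks as the final list holds in 3 of 4 replicates and among the 1000 strongest in 4 of 4. Replicate 3 was the weakest by either measure. The summits did not coincide exactly. Those of replicates 2 and 3 lay 25 and 1 bp to the left of the final summit, and those of replicates 1 and 4 lay 145 and 147 bp to its right, beyond the 16 bp repeat.

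The downstream final peak was matched within 170 bp in replicates 1, 2 and 3. Its signal value there was 48.7, 19.2 and 36.7, and its ranks were 29, 74 and 17. The ratios to the list medians were 3.86, 4.20 and 5.29, and the 3 summits lay within 25 bp of the final one. In replicate 4 no summit lay within 170 bp. A peak from 3959998 to 3960373 overlapped the end of the final peak there, with its summit at 3960186, 291 bp away, a signal value of 12.4 and rank 656. The 2 sites therefore differed in which replicate was weak, with replicate 3 low at the upstream site and replicate 4 low at the downstream site. Each list also holds the authors' −log10 of a q-value. The upstream site had the highest value of the list in replicates 1, 2 and 4 (2.53, 3.07 and 2.02) and below it in replicate 3 (1.43 of 2.43). The downstream site had the highest value of the list in replicates 1 to 3. That highest value is shared with weaker peaks, such as those of rank 194 in replicate 2 and rank 46 in replicate 4. It therefore does not place a site first in its list.

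In the pooled list the final peaks were 29th (downstream, signal 111) and 36th (upstream, signal 104.3) of 3912. The final list is the strongest part of the pooled list, and its signal values ranged from 57.9 to 233.5 with a median of 73.7, so both sea-2 peaks stood above that median. Since the final list draws on all 4 replicates, a match in any 1 of them is not independent support for its peaks.

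**Figure D2:**
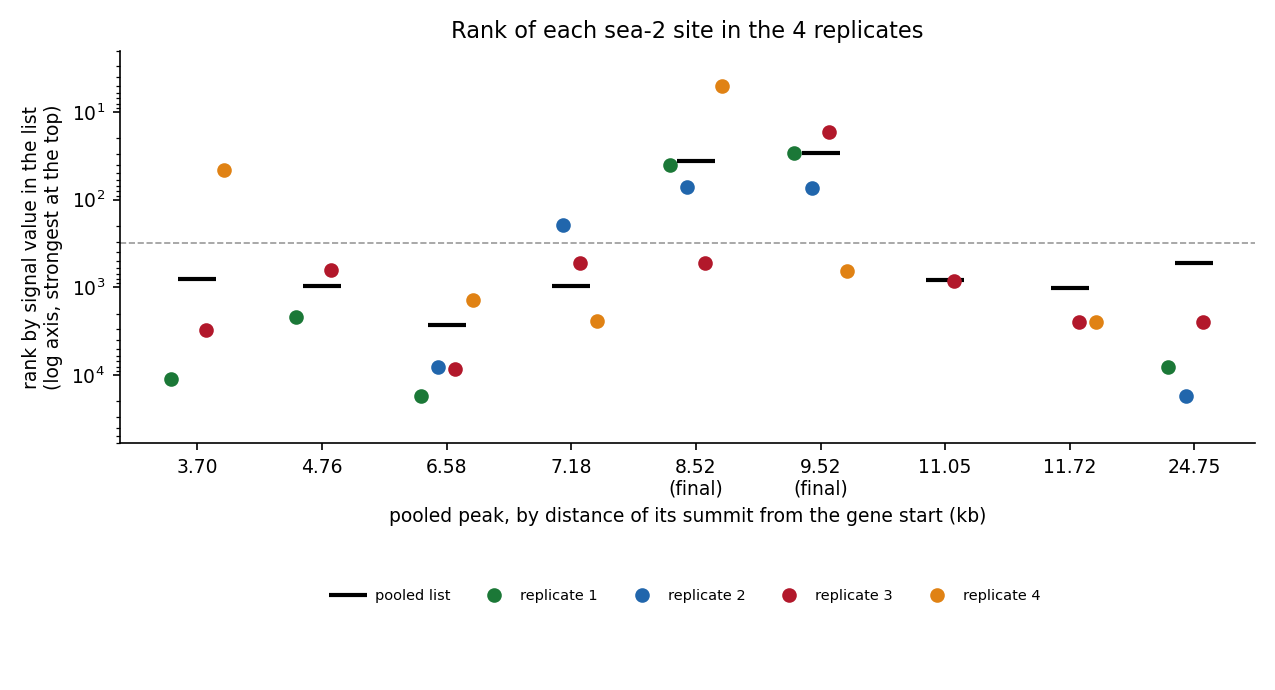
Rank by signal value (y axis, log scale, strongest at the top) of the 9 pooled peaks of the region, placed by the distance of the summit from the gene start in kb. Bars give the rank in the pooled list and points the best ranked overlapping peak in each replicate; the dashed line is the number of peaks in the final list, and a missing point means no overlapping peak. At the 2 final sites, 3 of 4 replicates lie above the dashed line, and the fourth stands at 527 or 656.

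The other 7 pooled peaks were weaker, with pooled ranks between 533 and 2669. Their −log10 q ran from 0.0736 to 0.974, against 2.56 at both final peaks. The pooled list includes background, and which of the 7 are background is not known here. Of these 7, 1 was overlapped by a peak in all 4 replicates, the one at 3956961. In intron 2 the peak with its summit at 3954076 had pooled rank 801. It was the 46th strongest peak of replicate 4, had ranks of 11201 and 23465 in replicates 1 and 3, and had no overlapping peak in replicate 2. At 3955140 (pooled rank 972) replicates 1 and 3 had summits within 170 bp of rank 2158 and 4266, and replicates 2 and 4 had no peak. In replicate 3 a further peak, with its summit over 170 bp away, overlapped each of the 2, with ranks of 3052 and 639. The replicate with the best rank therefore differed between these 2 sites.

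Summits at 3956961 and 3957560 flanked K10G6.10, a small nucleolar RNA gene inside intron 2 at 3957203 to 3957372. Small nucleolar RNAs guide chemical modification of ribosomal RNA. The first lay 242 bp upstream of that gene's start and had pooled rank 2669, with overlapping peaks of rank 17320, 8101, 8550 and 1408 in replicates 1 to 4. The second lay 357 bp downstream of the start and had pooled rank 954. It was strong in replicates 2 and 3 (ranks 194 and 530), replicate 4 had only a shifted overlapping peak of rank 2389, and replicate 1 had none. At the second small nucleolar RNA gene, K10G6.11 (3970618 to 3970723), no pooled summit was found. Replicate 3 had a summit of rank 459 at 3970515, just upstream of it, and one of rank 7852 at 3970716, inside it, and no other replicate had a summit within 170 bp of either.

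Near the starts of the shorter transcripts, the pooled peak at 3961426 was 797 bp upstream of 3962223 and had pooled rank 819. Only replicate 3 had a peak there, of rank 849. The pooled peak at 3962098 was 125 bp upstream of 3962223, in the next intron of the longest transcript, with pooled rank 1017. Replicates 3 and 4 had it at ranks 2492 and 2489, and replicates 1 and 2 did not. Replicate 2 had a summit of rank 1510 at 3962562, in a coding exon and close to the annotated start at 3962522, where no pooled peak lay. Summits close to these starts were thus seen in replicates 2, 3 and 4, and the 2 final sites lay further upstream. No final or pooled summit lay in a coding exon of sea-2 or in the 5000 bp upstream of the gene start.

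The remaining pooled peak, at 3975127, lay beyond the 3′ end of sea-2 and 62 bp upstream of cank-26, a gene on the minus strand at 3972742 to 3975065. Its pooled rank was 533, and replicates 1, 2 and 3 had overlapping peaks of rank 8139, 17320 and 2515. The other genes in the region were K10G6.9, the noncoding RNA gene K10G6.7 and dos-2, a gene of the family of Notch coligands with a DOS motif, which lies across the downstream edge. None of these 3 had a pooled summit nearer to its start than to that of another gene.

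Some strong summits of 1 or 2 replicates had no pooled peak. Replicate 3 had one of rank 139 at 3956296 and one of rank 177 at 3960554, both in intron 2. At 3960409 replicate 2 had a summit of rank 7222 within 170 bp of the second, and no other replicate had one near the first. In the coding exons, replicates 2 and 4 had summits at 3966978 and 3967001 with ranks of 881 and 758, and in replicate 4 a summit of rank 627 stood at 3969394. Joined wherever neighbouring summits lay within 170 bp, the 69 replicate summits made 48 groups. Of these 33 were seen in 1 replicate, 11 in 2, 2 in 3 and 2 in all 4. The groups seen in 4 replicates were the upstream final peak and the weak site before K10G6.10. At the latter the replicate 1 summit lay just over 170 bp from the pooled one.

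Of the 69 replicate summits 34 (49.3%) fell in intron 2, which holds 32.6% of the bases, 12 in other introns, 9 (13.04%) in coding exons, which hold 18.6% of the bases, 6 in the upstream flank and 8 in the downstream flank. The intron's share differed widely between replicates. Summits per kb in intron 2 over summits per kb in the rest of the region came to 10.3, 1.03, 3.68 and 1.11 in replicates 1 to 4, and to 7.24 in the pooled list. In replicates 2 and 4, therefore, summits were as dense in the rest of the region as in the intron. Of the 20 replicate peaks among the 1000 strongest of their list, 15 lay in intron 2 (2 of 2, 3 of 5, 7 of 8 and 3 of 5 in replicates 1 to 4), 2 in other introns, 3 in coding exons and 0 in the flanks.

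Summits were denser over sea-2 than over the rest of the chromosomes in 3 of 4 replicates. The region had 0.189, 0.567, 0.787 and 0.630 summits per kb in replicates 1 to 4, and the rest of the chromosomes had 0.236, 0.299, 0.299 and 0.299. The lists of replicates 2, 3 and 4 each hold 30000 peaks, so their equal density in the rest follows from the length of the list. The log2 of the ratio of region to rest was −0.32, 0.92, 1.40 and 1.07, with a mean of 0.77 ± 0.75 (SD, n = 4). For the difference from 0 an exact two-sided sign-flip permutation test over the replicates gave p = 0.25. The smallest p that 4 replicates allow in this test rounds to 0.13, so it could reach no low p whatever the values. Replicate 1, whose list was the shortest, was the one below 0, and without it the mean was 1.13 (exact p = 0.25, the smallest that 3 replicates allow).

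The excess depended on how many peaks of each list were used. With the 10000, 5000 and 1000 strongest peaks of each replicate the mean log2 ratio was 1.85 ± 1.03, 2.56 ± 1.10 and 3.83 ± 0.84 (SD, n = 4), and it was above 0 in 4 of 4 replicates in each case (exact p = 0.13, the smallest possible). Among the 1000 strongest, the density in the region was 6.32, 15.9, 25.5 and 15.9 times that in the rest. The mean ratio on the log scale was 14.2, against 1.70 with the full lists. The full lists hold many weak peaks spread over the genome, and among the strong ones the sea-2 region was the more dense in every replicate. The summits of the 2 final peaks are among these strong ones. In replicate 1 the excess with the 10000 strongest peaks was small, at 4 summits in the region and 1.26 times the rest. Its 2 summits among the 1000 strongest were those of the 2 final sites.

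**Figure D3:**
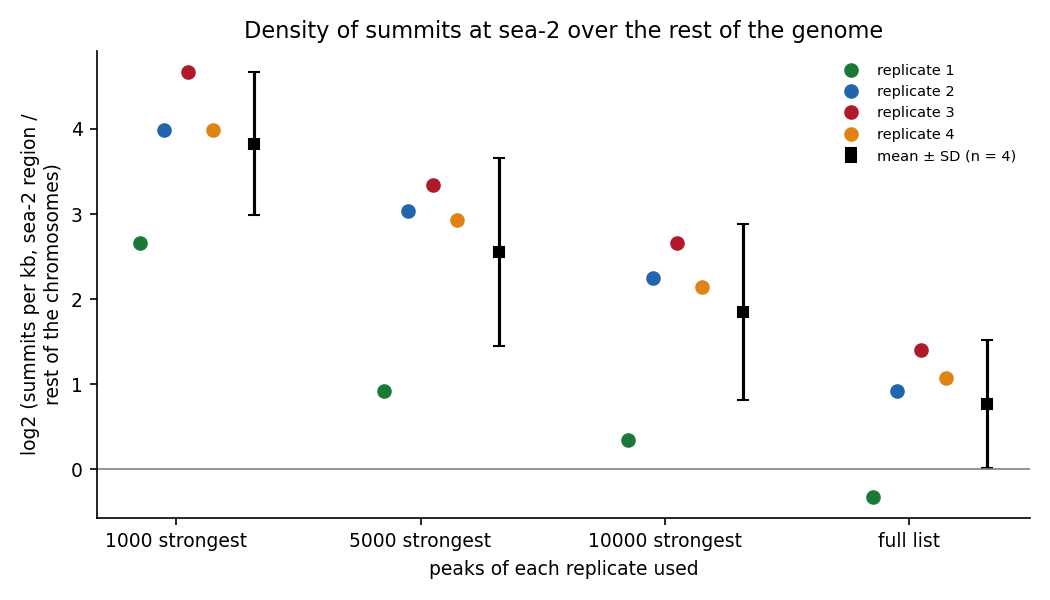
Log2 of the density of summits in the sea-2 region over that in the rest of the chromosomes (y axis), for the 1000, 5000 and 10000 strongest peaks and the full list of each replicate (x axis). Points are replicates and black squares are means with SD over 4 replicates; the mean is 3.83 for the 1000 strongest peaks and 0.77 for the full lists, where replicate 1 lies below 0.

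By bases instead of summits, peaks covered 6.99, 16.8, 26.6 and 22.6% of the region and 8.55, 8.79, 10.6 and 10.9% of the rest in replicates 1 to 4. In the pooled list summits were 7.28 times as dense in the region as in the rest, and in the final list 20.4 times. At least 9 pooled summits were found for 2 of 19973 protein-coding genes (0.0100%), sea-2 with 9 and ppfr-1, which encodes a regulatory subunit of protein phosphatase 4, with 15. The cut-off is the count of sea-2 itself, which includes the peak 62 bp upstream of cank-26. Both genes are long, at 21764 and 25884 bp, and no share among genes of like length was taken for pooled summits. At least 1 pooled summit was found for 7152 genes (35.8%). The median signal value of the region's peaks was 1.30, 1.81, 1.54 and 1.62 times the median of the whole list in replicates 1 to 4 and 1.23 times in the pooled list, so the peaks of the region were on the median stronger than those of the whole list in each of these lists.

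The log2 density ratio averaged 1.24 in replicates 3 and 4 and 0.30 in replicates 1 and 2, which had the other worm source and another fragmentation note. For the difference of 0.94 an exact two-sided permutation test gave p = 0.33. That is the smallest p that 2 against 2 allows, so the test cannot decide and the difference is a description. Within replicates 3 and 4 the ratios were 1.40 and 1.07, and within replicates 1 and 2 they were −0.32 and 0.92. Worm source and fragmentation cannot be told apart here.

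Outside the region the density was nearer to that of the genome. In the 45 kb upstream of the region the replicates had 0.244, 0.178, 0.289 and 0.156 summits per kb, and in the 45 kb downstream 0.244, 0.400, 0.289 and 0.356. None of the 1000 strongest peaks of any replicate lay in the 45 kb upstream. Downstream replicate 4 had 2 and the other replicates had 0, whereas the region itself held 2, 5, 8 and 5. Over the same flanks the pooled list had 1 peak upstream and 2 downstream. The nearest final summits on the chromosome lay 516955 bp beyond the upstream edge and 1040218 bp beyond the downstream edge.

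At the edges of the region the first summits were mostly weak, with the exception of replicate 4, in which 1 of rank 734 lay just outside the downstream edge. The first replicate summits inside the upstream edge had ranks of 11201, 11493, 8078 and 22885 in replicates 1 to 4, and the first outside it had ranks of 13449, 8610, 26243 and 1309. At the downstream edge the first inside had ranks of 8139, 17320, 9364 and 1758, and the first outside had ranks of 18892, 24454, 5766 and 734.

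**Figure D4:**
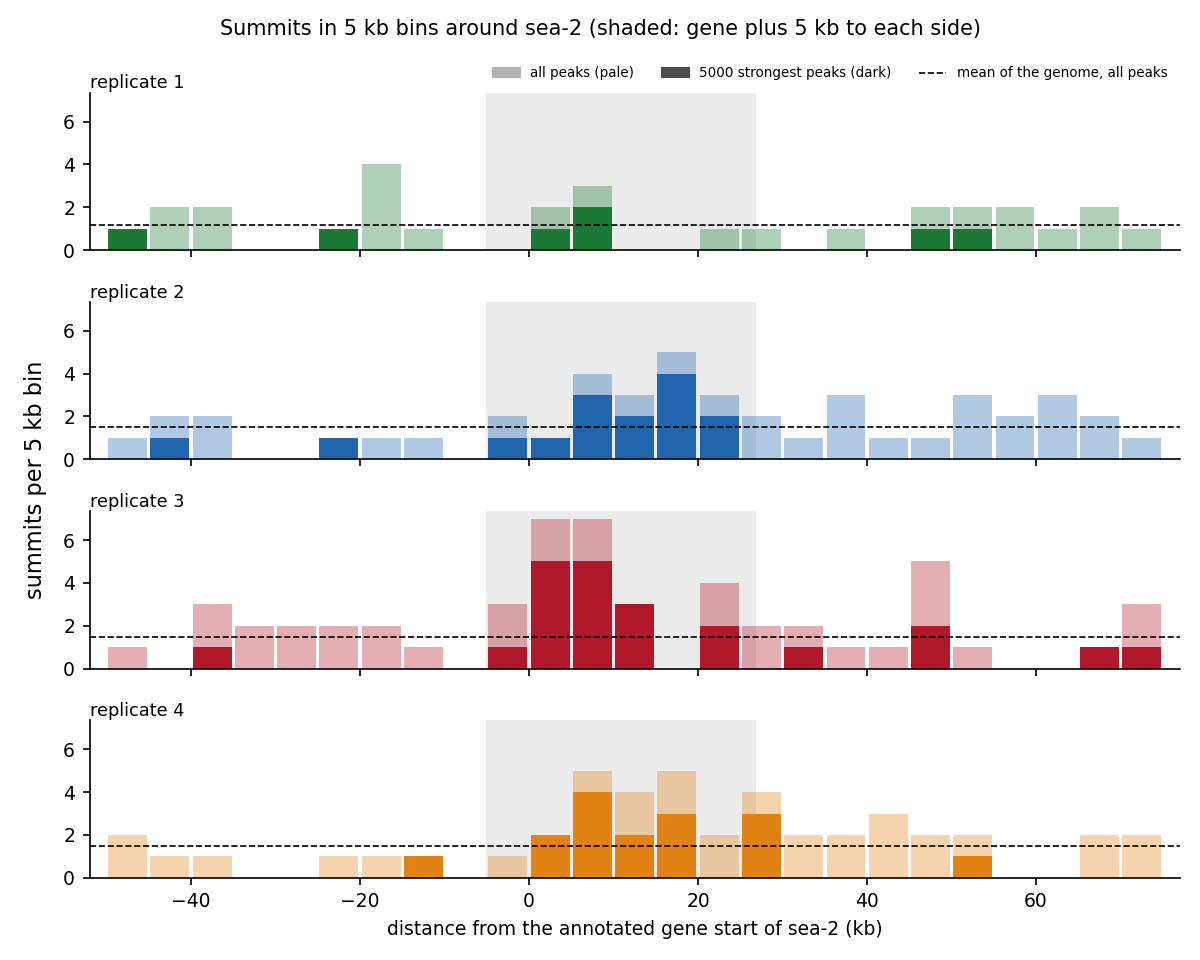
Summits per 5 kb bin (y axis) by distance from the annotated gene start in kb (x axis), for the 4 replicates, with all peaks in pale and the 5000 strongest in dark bars; the dashed line is the mean of the genome and grey shading the gene with 5 kb to each side. Replicates 2, 3 and 4 have most of their dark bars inside the shaded region, where 13, 16 and 12 of their 5000 strongest peaks lie, and replicate 1 has 3 there.

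The transgene also carries unc-119 per the labels, and whether its copy has the full worm sequence of that gene, or whether neighbours of sea-2 are carried too, is not known here. The best ranks in replicates 1 to 4 were 29, 72, 17 and 5 at sea-2, against 11361, 1696, 5855 and 1487 at unc-119. No final summit lay within the body of unc-119 and 5000 bp to each side, and its best pooled rank was 3576. The part of transgene copies in the sea-2 peaks was not tested.

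The best rank at sea-2 had a median of 23 over the replicates. It mixes both final sites, since the best peak was the downstream one in replicates 1 and 3 and the upstream one in replicates 2 and 4, and each site alone had a weak replicate. A gene body plus 5000 bp with a best rank of 72 or better in every replicate was found for 22 of 19973 protein-coding genes (0.110%), sea-2 included, and several of these share 1 peak with a neighbour. By distance between the log10 ranks over the 4 replicates, the gene nearest to sea-2 was lin-42, with ranks of 14, 75, 13 and 8 (distance 0.394). This gene is the worm homologue of the circadian gene period and acts in larval timing. The next were rpn-3, a proteasome subunit, mrpl-32, of the mitochondrial ribosome, hsp-110, a chaperone, and ufbp-1. These 4 neighbours share 1 peak, of ranks 60, 86, 6 and 6 (distance 0.563).

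Peaks at sea-2 were also set among the final peaks most like them, those with summits in introns of autosomal genes and outside the window from 1000 bp upstream to 200 bp downstream of any start. There were 23, of which 21 lay in other genes. The sea-2 peaks had final ranks of 29 and 36, against a median of 179 and a range of 19 to 293 for the others, of which 2 were ahead of both. In replicate 1 none of the others was ahead of either sea-2 peak. In replicate 2, 4 were ahead of each. In replicate 3, where 20 of the others had a peak, 14 were ahead of the upstream peak and 1 of the downstream one. In replicate 4, where 17 of the others had a peak, these numbers were 0 and 9. The rank used there for the downstream peak is that of the overlapping peak with its summit 291 bp away. The place of each sea-2 peak thus changed with the replicate as described above.

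Genes of the pathways in which sea-2 acts were examined in the same way. Of 12 matched genes of sex count and sex determination, 1 (8.33%) had a final summit in its body plus 5000 bp, against 3.88% of all protein-coding genes, and a count of 1 does not set the list apart. It was tra-2, which encodes a membrane receptor that promotes female development. The summit lay 3705 bp beyond the 3′ end of tra-2 (final rank 82), and the best ranks were 88, 39, 980 and 91. At sea-1, another autosomal element of the count, no final or pooled summit was found, and the best ranks were 7209, 10000, 7300 and 5381. At xol-1, the switch gene on which the count acts, no final summit was found, and the best pooled rank was 506. Of the 12 genes 9 had at least 1 pooled summit, against 35.8% of all protein-coding genes.

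Of 12 genes of larval timing, 4 (33.3%) had a final summit, against 3.88% of all protein-coding genes as given above. In lin-42 there were 3, of final rank 11, 179 and 255. Others were in kin-20, which encodes a casein kinase (rank 88), in lin-28, which encodes an RNA-binding protein of early larval fates (rank 185), and 883 bp upstream of nhl-2, a cofactor of microRNA action (rank 42). At least 1 pooled summit was found for 11 of the 12, against 35.8% of all protein-coding genes. The lists were chosen with earlier results of these data known, and the shares are descriptions. Long genes have more room for a summit, and no share among genes of like length was taken for either pathway list.

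**Figure D5:**
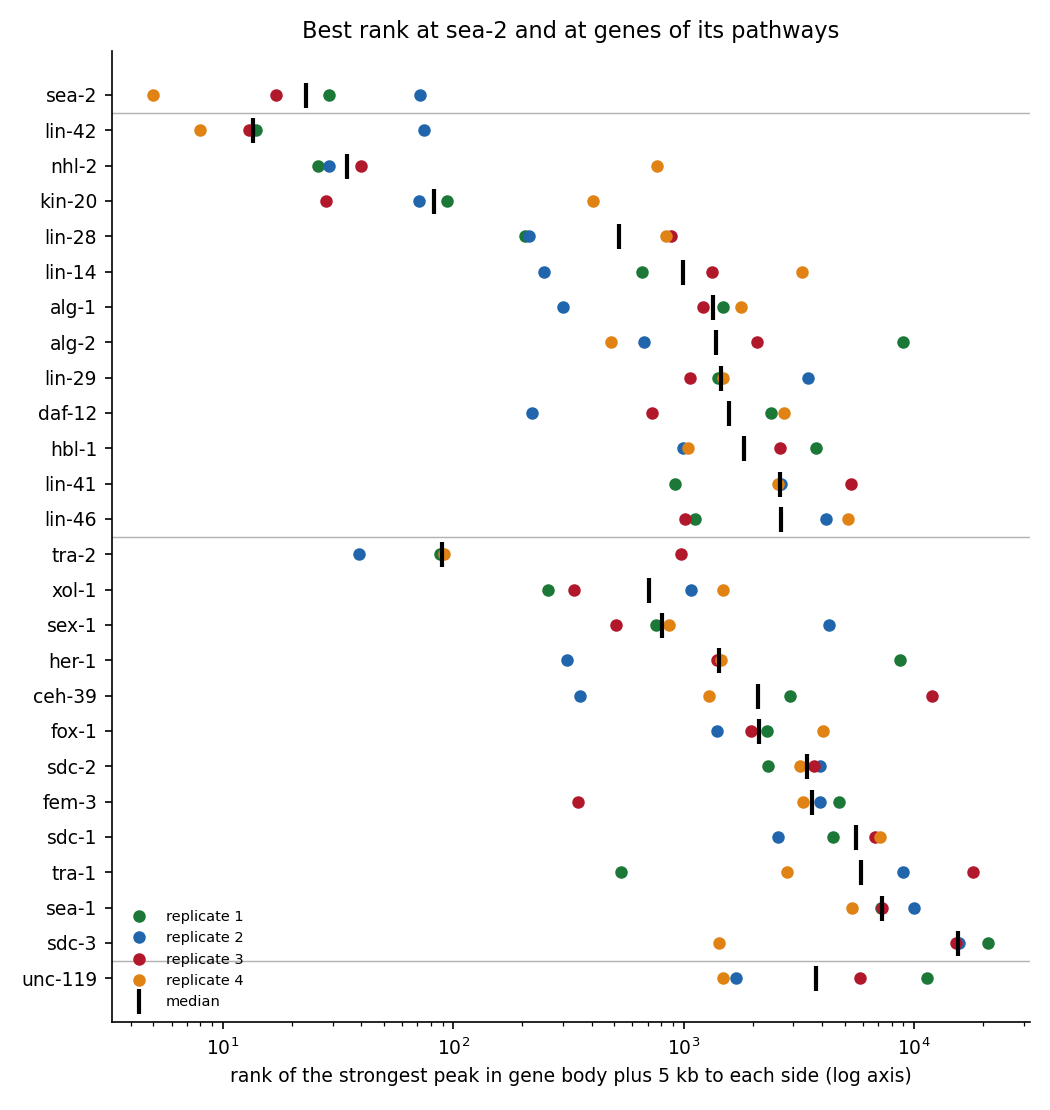
Rank of the strongest peak in each gene body plus 5 kb to each side (x axis, log scale) for sea-2, for genes of larval timing, for genes of sex count and sex determination, and for unc-119, the marker of the transgene; points are replicates and bars are medians. The median is 23 for sea-2, and of the genes shown lin-42 alone has a lower one.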

How the data were processed

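Peak lists from 4 biological replicates, 1 pooled list and 1 final list were used. Per the deposited file records, each replicate was called against 1 control file shared by all, the pooled list from all 4 alignments, and the final list by irreproducible discovery rate. The aligner, the peak caller and their thresholds were each not given in the sources used here. The authors deposited, for each peak, a signal value of unstated scale and the −log10 of a q-value, both used as deposited. No read numbers are given, so the depth is unknown and no interval for counting error is given. Lists on ce10 were not used, since positions were not converted between builds.

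Peaks were ranked within a list by signal value (ties took the lowest rank) and placed by summit, 1-based, with Ensembl release 115 on WBcel235 (ce11), and sequences came from RefSeq for the same assembly. A summit within 170 bp of a pooled summit counted as the same site. Each exon class was taken from all transcripts of sea-2, and intron 2 from the longest. Second copies were searched with blastn 2.17.0 (at least 50 bp, 90% identity). Calculations used python 3.11.15, numpy 2.4.6, pandas 2.3.3 and scipy 1.17.1, figures matplotlib 3.10.9. Counting was tested on simulated data, and the sign-flip test on fixed examples with known answers.

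The genes named were sea-2, every gene overlapping its region, unc-119, each pathway gene with a final summit, and the 5 genes whose best ranks in the replicates were nearest to those of sea-2. Outside that rule ppfr-1, sea-1 and xol-1 were named after their values were seen. Of 13 listed symbols of sex count and sex determination, sex-2 matched no gene. The members and lists were chosen with earlier results of these data known. Nothing in the labels pairs replicates, and there is 1 group. The replicates are biological per the labels and are the units of the tests. The p-values do not take into account how other regions of the genome vary.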

Additional observations from a re-analysis of the deposited data

Results flagged for a closer look

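At the upstream final peak (summit 3958893) replicate 3 stood apart from the other replicates, with rank 527 against 40, 72 and 5 in replicates 1, 2 and 4. At the downstream final peak (summit 3959895) replicate 4 stood apart, with an overlapping peak of rank 656 against 29, 74 and 17 in replicates 1, 2 and 3. In each case the gap to the nearest other replicate was large relative to the range of the 4 raw ranks by Dixon's criterion. That criterion picks out about 1 in 20 groups by chance only when values are roughly normal. Raw ranks are not, so the rate does not hold here, and the gap is less marked on a log scale. The cause was not tested.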

How the results depend on the processing

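Under the alternatives run, the 2 final peaks stayed in the region whether it was the gene body alone or the gene body plus 10000 bp, by any overlap, and within the stronger 50% of the final list. The median best rank was 23 under each choice of region and lay between 17 and 29 when 1 replicate was left out. The mean log2 density ratio was 0.99 for the gene body alone, 0.56 with 10000 bp to each side, 0.75 by covered bases and 0.77 against chromosome II alone, and lay between 0.56 and 1.13 when 1 replicate was left out. The downstream final peak was found in 3 replicates by summit and in 4 by overlap among the 1000 strongest, an alternative chosen after seeing the data. The difference by worm source was 0.87 to 1.15 under 4 alternatives also chosen after seeing the data. The share of protein-coding genes with at least 1 summit was 0.36% for gene bodies alone and 35.8% with the pooled list, against 3.88%, since fewer bases or more peaks were counted. Depth is unknown, so a missing peak in a replicate may be a matter of depth. No paired analysis was possible because there is 1 group.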
